A study of Rattus norvegicus with 12 samples.

Results

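Pyramidal neurons of the hippocampal CA3 region were compared with neurons of the frontal cortex (CTX), the 2 regions that the study grouped as resistant to oxidative stress. All arrays with these labels were taken, which gave 6 of the 12 arrays of the series, 3 titled hippocampal CA3 and 3 titled cerebral cortex, paired by the number of the biological replicate. The rats were Fisher 344/BN F1 hybrids, 6 months old and given no treatment, and each region is represented by biological replicates numbered 1 to 3 (CA1, CA3, the granule cell layer of the cerebellum, CbG, and CTX, which was cut from cortical layers IV to VI). Cells were cut by laser from stained frozen sections, their total RNA was amplified in 2 cycles, and each sample was hybridized to 1 Affymetrix RAE230A array, an oligonucleotide array on which a gene is read by 1 or several probe sets. A capture holds every cell in the cut patch, and with bulk RNA fewer cells of a type cannot be told apart from less RNA per cell. The array labelled CA3 replicate 3 did not resemble the other CA3 arrays, so the counts over all probe sets are given 3 ways, with those of the gene lists gathered near the end: as labelled, with CA3 replicates 1 and 2 only (5 arrays of the comparison), and with the labels of that array and of CbG replicate 3 exchanged.

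CA3 pyramidal neurons receive the mossy fibers of the dentate granule cells, excite one another through recurrent collaterals and send the Schaffer collaterals to CA1. The deep layers of the frontal cortex hold pyramidal neurons that project to subcortical targets and to the thalamus, together with inhibitory interneurons and glia. Pyramidal neurons of both regions release glutamate, and a comparison of the 2 asks how hippocampal and cortical excitatory neurons differ.

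The labels of 2 arrays went against their markers. Grik4, the kainate receptor subunit that marks CA3, read 679.9 and 969 in CA3 replicates 1 and 2 but 68.0 in the third array of that label. The array labelled CbG replicate 3 read 621, against 70.0 and 136 in CbG replicates 1 and 2. Neurogranin (Nrgn), which binds calmodulin in forebrain neurons, split the arrays in the same way. CA3 replicates 1 and 2 read 6294 and 7304 for it and the third array with that label 49.2. The array labelled CbG replicate 3 read 6451, against 21.8 and 24.5 in CbG replicates 1 and 2. Gabra6, the GABA receptor subunit of cerebellar granule cells, was 5.6 and 38.6 in CA3 replicates 1 and 2 but 2568 in the third array of that label. Over all probe sets tested, the array labelled CA3 replicate 3 correlated at 0.702 with CA3 replicates 1 and 2 and at 0.934 with CbG replicates 1 and 2 (mean Pearson correlation of log2 signals), whereas the array labelled CbG replicate 3 correlated at 0.959 with CA3 and at 0.730 with CbG. The match of the latter to CA3 was not complete. Wfs1, a marker of CA1, read 3769 there against 1045 and 481 in CA3 replicates 1 and 2, and the summed signal of the CA1 marker list was 10207 against 2001 to 3651 in CA3 and 39090.0 to 45342 in CA1. Wfs1 was chosen for this after its values were seen. RNA integrity was read from the β-actin controls: the 3′ signal exceeded the 5′ signal by 4.01 and 4.45 on the log2 scale in CA3 replicates 1 and 2 and by 4.13 to 5.14 in CTX, with overlapping groups. For the GAPDH controls the same excess was 1.31 and 2.08 in CA3 and 2.06, 2.76 and 2.47 in CTX, so that one control lay lower in CA3 in all but 1 pairing of arrays, and the part of RNA integrity in the differences given here was not tested. Gene values below come from CA3 replicates 1 and 2 and the 3 CTX arrays unless stated otherwise, and the values of the doubted arrays are set beside those of some genes.

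**Figure D1:**
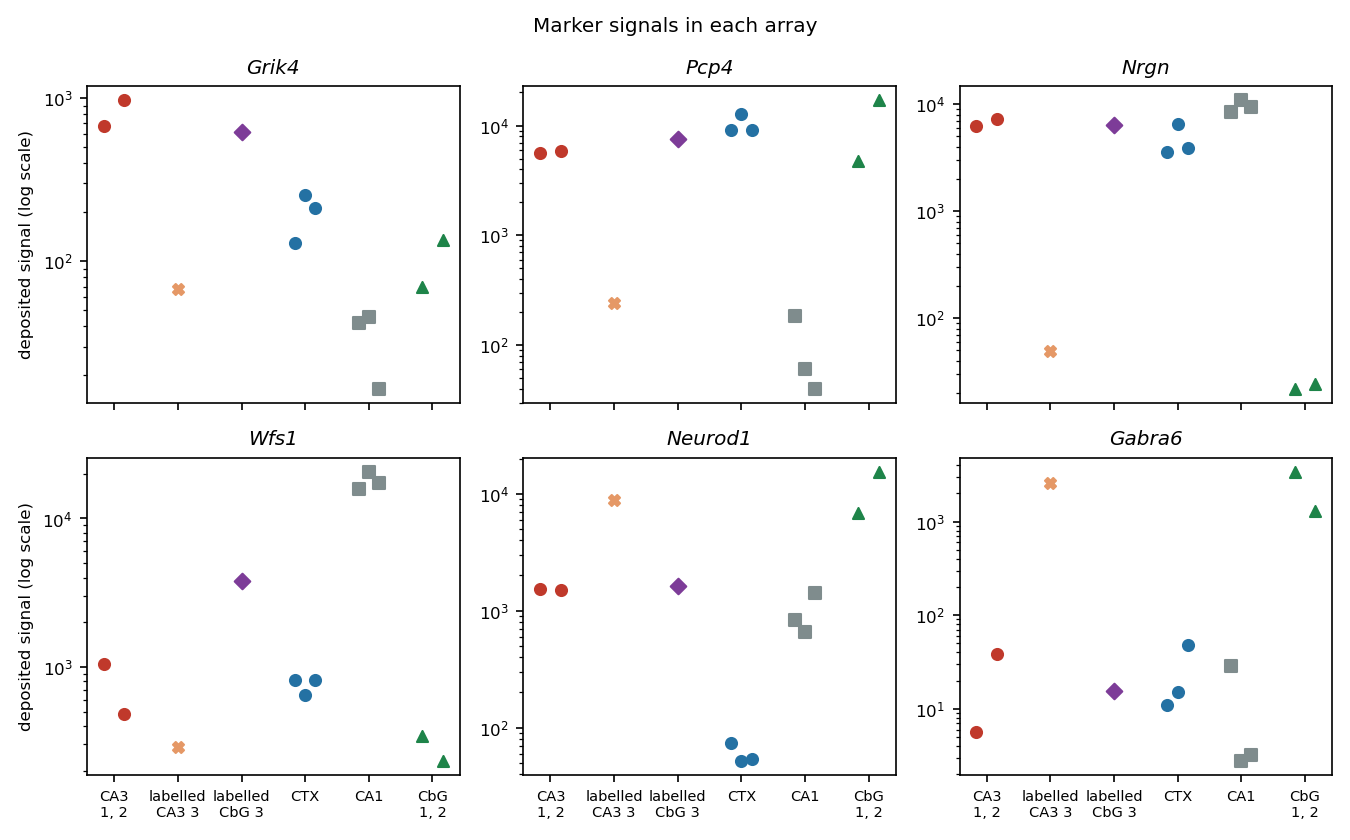
Deposited signal (log axis) of 6 marker genes in each array, with 1 point per array and the arrays grouped along the x axis by label, the 2 doubted arrays on their own. For Grik4 and Nrgn the array labelled CA3 replicate 3 (cross) lies far below CA3 replicates 1 and 2, while the array labelled CbG replicate 3 (diamond) lies near them; for Gabra6 and Neurod1 the cross lies with the CbG arrays.

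Pcp4, the other marker used for CA3 and also on the list of CA2 markers, was not higher in CA3 than in CTX. It encodes a small calmodulin-binding protein also known from deep cortical neurons. Its signals were 5599 and 5856 in CA3 replicates 1 and 2 and 9095, 12619.8 and 9125 in CTX replicates 1 to 3, a log2 difference of -0.73 ± 0.63 (SE, adjusted p = 0.39). Against the CA1 arrays, which read 183, 60.0 and 39.9, CA3 was higher by 6.02 on the log2 scale (adjusted p = 0.000894; 5.96 with signals under 50 set to 50). Pcp4 thus set CA3 apart from CA1, while its difference from CTX did not pass the test. Both CA3 signals lay below all 3 CTX signals. The SE of the test draws on the spread within all regions of the fit, CA1 among them, so it is not the spread of CA3 and CTX alone.

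Signals were taken as log2 values minus the array median, and a probe set was called when its CA3 minus CTX difference passed a Benjamini-Hochberg adjusted p of 0.05 and 1.5-fold in limma, with the replicate number as a block. Each fit held the arrays of all regions. Its SEs and p-values thus rest on a spread shared by the regions, not on the CA3 and CTX arrays alone. Without the doubted arrays, the CA1 and CbG arrays can also move a difference through the block. With CA3 replicates 1 and 2 only, 2662 of 8486 probe sets tested were called (31.4%), of which 1955 were higher in CA3 (23.0%) and 707 lower (8.33%). As labelled, 208 were called (2.45%), of which 103 were higher (1.21%) and 105 lower (1.24%), and every one of these was among the calls made without the doubted arrays. With the labels exchanged, 3026 were called (35.7%), of which 2148 were higher (25.3%) and 878 lower (10.3%), and 1771 of the higher and 663 of the lower calls were shared with the fit on CA3 replicates 1 and 2. The predominance of higher calls depended on the scaling. The array medians were 145.5 to 158.5 in the CA3 arrays and 187.0 to 199.3 in the CTX arrays, so that centring raised CA3 as a whole and the median log2 difference over all probe sets tested was 0.32. Without centring that median was -0.046 and the calls were 682 higher and 1181 lower (8.04% and 13.9%). With quantile normalization it was 0.046, with 816 higher and 941 lower (9.62% and 11.1%). All 3 scalings called 603 probe sets higher and 673 lower (7.11% and 7.93%), and counts without centring are given below beside those with it.

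The 12 genes most strongly raised and the 12 most strongly lowered in CA3 were called under all 3 scalings and with the labels exchanged. As labelled, 3 of each 12 were called. These genes were chosen by the size of this same difference and for groups that did not overlap, so their values describe the extremes. Over all probe sets tested, both CA3 values lay above the 3 CTX values in 47.8% and below them in 16.4%. Rem2, a small GTPase that restrains voltage-gated calcium channels, read 894 and 1216 in CA3 replicates 1 and 2 and 17.4, 9.0 and 14.3 in CTX (log2 difference 6.66 ± 0.44, SE, adjusted p = 9.49e-05). The low CTX readings lie far below the array medians, and with every signal under 50 set to 50 the log2 difference was 4.70. Neurod1, a transcription factor of excitatory neurons, read 1540.4 and 1510.2 in CA3 replicates 1 and 2 and 73.7, 52.2 and 53.6 in CTX (log2 difference 5.17 ± 0.44, adjusted p = 0.000161). The doubted arrays read 8829 (labelled CA3) and 1622 (labelled CbG), so the exchange of labels left its difference at 5.04.

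Several of the other raised genes were also raised over CA1, the neighboring pyramidal layer. Neuronatin (Nnat), the product of an imprinted gene, read 12136 and 11693 in CA3 replicates 1 and 2, 1243, 993 and 982 in CTX and 241, 244 and 178 in CA1, which put CA3 above CTX by 3.74 ± 0.31 on the log2 scale (adjusted p = 0.000156) and above CA1 by 5.72 (adjusted p = 8.37e-05). Plagl1, an imprinted zinc finger transcription factor, read 552 and 407 in CA3 replicates 1 and 2, 64.5, 3.5 and 17.8 in CTX and 3.2, 2.3 and 2.3 in CA1. Il16, the gene of a cytokine precursor with a neuronal isoform, read 1764 and 2091, 117, 104 and 26.2 and 72.0, 49.7 and 33.2 in the same order. For Il16 the doubted arrays read 8747 (labelled CA3) and 1840 (labelled CbG), and CbG replicates 1 and 2 read 6980 and 7318, above CA3. The comparison with CA1 shares the CA3 arrays, and in it Nnat, Plagl1, Il16, Cst6 (cystatin E/M, a protease inhibitor) and Prss23 (a secreted serine protease) were called higher, a call made for 383 probe sets (4.51%) over all those tested (727 in either direction, 8.57%). Lpl (lipoprotein lipase), Pkp2 (the junction protein plakophilin 2) and Rasd1 (a Ras-related protein induced by dexamethasone) shared high signals between the hippocampal layers. Lpl read 1734 and 2258 in CA3 replicates 1 and 2 and 1049, 1852 and 1724 in CA1, against 152, 139.9 and 143 in CTX. Klk8, the secreted protease neuropsin, read 314 and 291 in CA3, 787, 869.5 and 1068 in CA1 and 12, 13.9 and 4.1 in CTX.

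Among the lowered genes, some were near the floor in CA3 while CTX was clearly above it. The dopamine receptor Drd1 read 4.6 and 4.3 in CA3 replicates 1 and 2 and 268, 202 and 267 in CTX, a log2 difference of -5.87 ± 0.96 (adjusted p = 0.00329) that was -1.92 with signals under 50 set to 50. The former is an estimate of the fit with the replicate block, in which CA1 (56.5, 61.0 and 7.7 for Drd1) also took part. It was larger in size than the gap between any CA3 and CTX array after centring. Rprm (reprimo), which marks deep cortical neurons, read 62.1 and 12.6 in CA3 and 1158, 1325 and 1228 in CTX (log2 difference -5.30 ± 0.49, adjusted p = 0.000207, and -4.13 with signals under 50 set to 50), and the doubted arrays read 23.9 and 37.0. Thus Rprm was low in every array but those of CTX, where the 3 signals lay close together. Efna5, the repulsive guidance ligand ephrin-A5, read 26.4 and 28.5 in CA3 and 614, 953 and 779.5 in CTX. Other genes were low in CA3 alone among the forebrain arrays. Dpysl5, a collapsin response mediator protein, read 17.5 and 6.4 in CA3 replicates 1 and 2, 522, 376 and 391 in CTX and 438, 594 and 585 in CA1, and both CA3 signals were far under the array medians. With signals under 50 set to 50 the log2 differences were -2.72 from CTX and -3.36 from CA1 (adjusted p = 3.95e-05 and 2.12e-05). Cadps2, which primes dense-core vesicles for release, read 218 and 39.3, 2784, 4360.5 and 2983 and 3124, 2684 and 2939.8 in that order. Adgrl2 (the adhesion receptor latrophilin 2), Dpysl5, Cadps2, Egr2 and Pde9a (a cyclic GMP phosphodiesterase) were called lower than in CA1 (344 probe sets over all, 4.05%). The array labelled CA3 replicate 3 read 9764 for Cadps2, close to the 9032 and 9101 of CbG replicates 1 and 2.

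**Figure D2:**
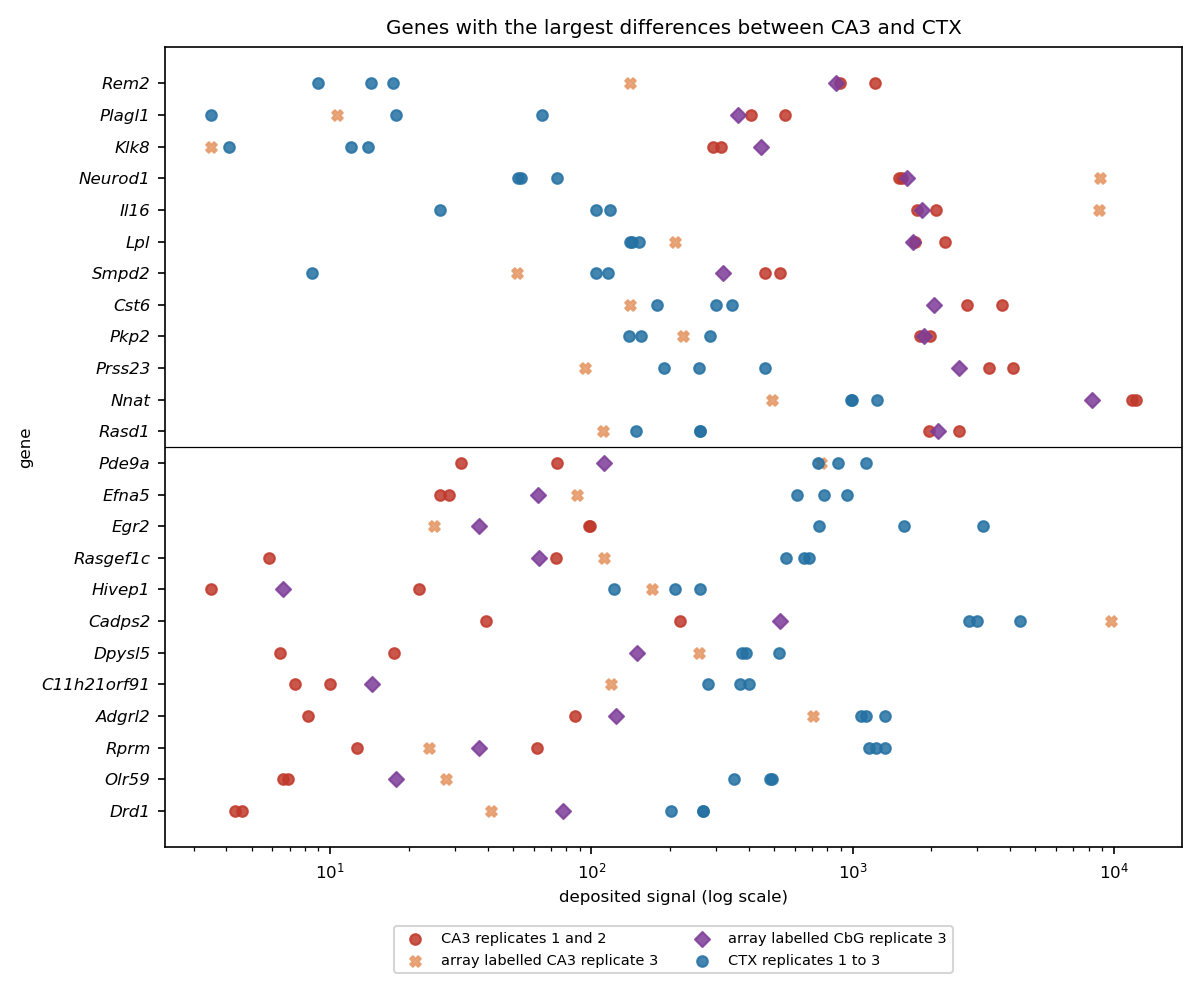
Deposited signal (log x axis) of the 12 genes with the largest positive (top) and the 12 with the largest negative (bottom) log2 difference between CA3 replicates 1 and 2 and CTX, with 1 point per array. In each row the CA3 and CTX points are apart, and the array labelled CbG replicate 3 (purple) lies nearer to the CA3 points than the array labelled CA3 replicate 3 (orange) in many rows, such as Nnat at 8220 against 491.

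The identity of the captured layers was checked with marker lists. Summed over members on the array, the CA3 list gave 21265 to 26935 in CA3, 21890 to 27244 in CTX and 5425 to 6942.5 in CA1. In CbG replicates 1 and 2 it gave 20161 to 31455. The list of cortical layers IV to VI gave 12280 to 13392 in CA3 and 10592 to 11858 in CTX. The CA3 sum thus lay lower in CA1 but overlapped between CA3 and CTX, and the cortical sum was higher in CA3 than in CTX. Over all probe sets 23.0% were higher in CA3 than in CTX and 8.33% lower. Of 8 tested markers of CA3 pyramidal cells, 4 were higher than in CTX and 2 lower (3 and 2 without centring), and 6 were higher than in CA1. The lower count was 0 by limma without CA3 replicate 1. Grik4 was higher than in CTX, where it read 129, 257 and 212, by 2.25 ± 0.37 on the log2 scale (adjusted p = 0.00332), and higher than in CA1 by 4.54 (adjusted p = 0.000299; 4.11 with signals under 50 set to 50). Bok, a member of the Bcl-2 family, read 1691 and 2021 in CA3 and 438, 372 and 381 in CTX (log2 difference 2.58 ± 0.22, adjusted p = 0.000178). CA1 read 1583, 1509.5 and 1569 for Bok (adjusted p against CA1 = 0.48), so it did not set CA3 apart from CA1. Car10, a catalytically inactive relative of the carbonic anhydrases, was lower than in CTX, with 576 and 773 in CA3 and 2439, 2252 and 2358 in CTX, while CA1 read 47.5, 43.5 and 65.9. Of 5 tested markers of CA2, the small field next to CA3, 4 were higher than in CTX and 0 lower, with or without centring and under every omission of 1 array. Rgs14, a regulator of G protein signaling, read 1749 and 1746 in CA3 and 312, 356 and 355 in CTX (log2 difference 2.74 ± 0.21, adjusted p = 0.00013), but 1286, 1539 and 1397 in CA1 (adjusted p against CA1 = 0.313). Amigo2, an adhesion protein, read 1725 and 1509.6 in CA3, 527, 398 and 554 in CTX and 334, 398 and 291 in CA1. Ntf3, also on this list, was under the array median in every CTX array. Pcp4 stood on both the CA2 and the CA3 list. Of the 4 CA2 markers above the array median in at least 1 array of each group, 3 were higher than in CTX. Of the 4 called higher than in CTX, 2 were also higher than in CA1. Of 7 tested markers of cortical layers IV to VI, Rprm and Ccn2 (connective tissue growth factor, a marker of layer VIb) were lower in CA3 and Sulf2 (an enzyme that trims heparan sulfate) was higher, with or without centring. Another 6 layer markers on the array, including Rorb and Tbr1, were not above the array median in enough arrays to be tested. Of 5 tested markers of CA1, 1 was higher and 1 lower than in CTX, and all 5 were lower than in CA1. Both tested markers of dentate granule cells were lower than in CTX, and of 5 tested markers of cerebellar granule cells Neurod1 was higher and 3 were lower. The dentate count was 0 by limma without CA3 replicate 1 or without CA3 replicate 2, and the lower cerebellar count was 0 without CA3 replicate 1.

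Markers of cells other than pyramidal neurons were mostly lower in CA3. Of 10 tested interneuron markers, 8 fell and 0 rose (background 8.33% lower and 23.0% higher), the count was the same without centring, and 7 fell with the labels exchanged. A member can enter the test through CTX alone, and such a member could hardly rise. Among the 8 interneuron markers above the array median in at least 1 array of each group, 6 fell, against 5.6% of the 7802 probe sets of that kind, and among 6 such oligodendrocyte markers 5 fell. Vip, the peptide of a class of cortical interneurons, read 125 and 113 in CA3 and 1404, 2256 and 1929.6 in CTX (log2 difference -3.55 ± 0.52, adjusted p = 0.00183). Sst (somatostatin) read 187 and 444 in CA3 and 1594, 1530.4 and 1402 in CTX, and Pvalb (parvalbumin), the marker of fast-spiking interneurons, read 122 and 129.8 and 402, 497 and 239. The 3 signals of each gene in CTX lay above both CA3 signals. With the labels exchanged Pvalb was not called by limma (log2 difference -1.12 ± 1.31, adjusted p = 0.52). The array then added to CA3 read 150, still below the CTX signals. The array then added to CbG read 5.3, beside 884 and 2047 in CbG replicates 1 and 2. The SE draws on the spread within all regions, so this result does not describe the CA3 and CTX arrays alone. Oligodendrocyte markers fell in 8 of 9 cases, for example the myelin gene Mobp with 2051 and 1306 in CA3 and 6096, 9767 and 10818 in CTX (log2 difference -1.96 ± 0.29, adjusted p = 0.00212) and Mog, a protein of the outer myelin sheath, with 138 and 87.5 and 495, 731 and 746. Astrocyte markers fell in 3 of 10 cases (5 without centring), microglia markers in 3 of 4, such as the complement gene C1qa, and endothelial markers in 3 of 4, such as Cldn5 of the tight junctions, and 0 members of any of these 5 lists were called higher by limma, also at an unadjusted p of 0.05. As labelled, limma called 0 interneuron and 0 oligodendrocyte markers lower, against 5 and 9 at an unadjusted p of 0.05. Leaving out 1 array at a time gave 2 to 8 lower interneuron markers, the lowest without CTX replicate 1 and without CTX replicate 2, and 2 to 9 lower oligodendrocyte markers, the lowest without CA3 replicate 2. The lists of astrocytes and microglia had 0 called without CA3 replicate 2.

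The summed signals of these lists give their levels. Of 14 interneuron markers on the array, 7 lay above the array median in both CA3 arrays and 10 in all 3 CTX arrays, and of 11 oligodendrocyte markers 5 and 8. Over all members on the array, the interneuron sum was 7259 to 8110.2 in CA3 replicates 1 and 2 and 19039 to 24964 in CTX. It was 25708 to 34398 in CbG replicates 1 and 2, where Reln alone read 12847 and 14935. Reln is also on the list of cerebellar granule cells, so this sum is not a level of interneurons alone. The oligodendrocyte sum was 10558 to 14375 in CA3 and 31197 to 48302 in CTX, and the astrocyte sum 15758 to 26166 in CA3 and 38040 to 59932 in CTX. Microglia gave 890.4 to 2214 in CA3 and 3365 to 7744 in CTX, and endothelium 991 to 1237 in CA3 and 2202 to 3225 in CTX. No marker read 0 in any array, and the CA3 and CTX ranges were apart for each of the 5 sums. The sums thus separated the same 2 groups as the comparison, and their part in the differences given here was not tested.

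Immediate early genes, which neurons transcribe within minutes of activity without new protein synthesis, were lower in CA3 in the largest share among the 25 lists of gene functions. Of 19 tested, 11 were lower in CA3 and 0 higher with CA3 replicates 1 and 2, 12 and 0 without centring, 11 and 0 with quantile normalization and 11 and 0 with the labels exchanged, against 8.33% lower over all probe sets. At an unadjusted p of 0.05 limma gave 13 lower and 0 higher. Of the 18 above the array median in at least 1 array of each group, 10 were lower. Leaving out 1 array at a time left 8 to 12 lower, the lowest without CA3 replicate 2. As labelled, 5 of 19 were called lower (Egr2, Klf4, Klf2, Junb and Nr4a1), against 1.24% over all. The median log2 difference of the 19 was -1.28, against 0.32 over all probe sets tested. The promoters of the 3 called members in which a searched motif was found are shown because they carry the elements through which such genes are known to be induced, the CArG box bound by serum response factor and the cyclic AMP response element bound by CREB. Each line holds the 250 bases before the annotated start in RefSeq (build GRCr8), 5′ to 3′ on the strand of the gene, with the motif in capitals: a CArG box that begins 83 bases before the start of Egr2 (chr20:21054442-21054691, minus strand), and a cyclic AMP response element that begins 66 bases before the start of Ier2 (chr19:40399123-40399372, plus strand) and 124 before that of Dusp1 (chr10:17184603-17184852, plus strand).
Egr2: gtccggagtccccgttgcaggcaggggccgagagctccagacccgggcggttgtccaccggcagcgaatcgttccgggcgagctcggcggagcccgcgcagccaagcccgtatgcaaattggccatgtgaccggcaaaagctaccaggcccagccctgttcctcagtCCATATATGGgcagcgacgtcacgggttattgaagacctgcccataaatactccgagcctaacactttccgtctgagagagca
Ier2: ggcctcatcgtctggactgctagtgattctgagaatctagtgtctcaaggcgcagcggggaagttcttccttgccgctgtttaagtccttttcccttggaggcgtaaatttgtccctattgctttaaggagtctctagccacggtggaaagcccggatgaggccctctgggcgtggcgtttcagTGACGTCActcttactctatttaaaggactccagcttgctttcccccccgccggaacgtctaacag
Dusp1: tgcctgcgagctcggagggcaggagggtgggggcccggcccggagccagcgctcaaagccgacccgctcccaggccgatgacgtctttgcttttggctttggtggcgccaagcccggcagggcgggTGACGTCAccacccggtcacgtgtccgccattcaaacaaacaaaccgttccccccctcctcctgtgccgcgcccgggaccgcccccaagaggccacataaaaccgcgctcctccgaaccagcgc
Both motifs read the same on the 2 strands. The cyclic AMP response element was searched as TGACGTCA and stood in 531 of 33469 promoters (1.59%), and the CArG box in 501 (1.5%). Of the 11 lowered genes 8 had a promoter entry, 1 of them with a CArG box and 2 with the cyclic AMP response element, and of the 8 genes not called 5 had an entry, 1 of them with a CArG box. A match describes letters and not a site in use.

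Egr2, a zinc finger transcription factor, had the widest gap of the list. Its signals were 97.5 and 98.4 in CA3 replicates 1 and 2 and 3152, 1572 and 743 in CTX (log2 difference -4.19 ± 0.28, adjusted p = 9.49e-05), and the doubted arrays read 25.0 (labelled CA3) and 37.0 (labelled CbG). CTX spread over a wide range for this gene, yet its lowest signal was several times the highest of CA3. Dusp1, the phosphatase that ends MAP kinase signaling, read 637 and 352 in CA3 and 6044, 4815 and 3563 in CTX (log2 difference -3.25 ± 0.27, adjusted p = 0.00016). Fos, a subunit of the AP-1 transcription factor, read 674 and 305 in CA3 and 4549, 3573 and 1622 in CTX (log2 difference -2.80 ± 0.30, adjusted p = 0.000474). For both genes the array labelled CbG replicate 3 lay in or at the CA3 range, with 352 for Dusp1 and 417 for Fos, and the array labelled CA3 replicate 3 was higher, with 1924 and 2363. Ier2 read 183 and 188 in CA3 and 918, 803 and 599 in CTX (log2 difference -1.95 ± 0.22, adjusted p = 0.0006).

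The remaining 7 lowered members had log2 differences between -1.88 (Arc, an activity-regulated protein of synapses) and -1.27 (Nr4a1, an orphan nuclear receptor), and comprised also Ier5, Fosb, Klf4, Klf2 and Junb. Arc read 730.4 and 686 in CA3 and 3954, 3022 and 1946 in CTX. CTX replicate 1 held the highest of the 3 CTX signals for Egr2, Dusp1, Fos, Ier2, Arc, Fosb, Klf4, Klf2, Junb and Nr4a1, which left Ier5 as the exception among the 11. Not every member passed the test. Egr1 read 1877 and 2388 in CA3 and 5309.6, 7000.1 and 4814 in CTX without passing the test (log2 difference -1.16 ± 0.51, adjusted p = 0.11). Both CA3 signals of Egr1 lay below its 3 CTX signals, and the SE draws on the spread within all regions of the fit. Jun read 2238 and 1746 in CA3 and 2740.0, 1739.9 and 1579 in CTX, and Nr4a3 1953 and 1279 and 1712, 1134 and 892, with overlapping groups for both. These genes outside the 4 of largest difference were named after their values were seen.

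Against CA1 the list was lower in CA3 as well. Of the 19, 7 were called lower and 1 higher than in CA1, where 4.05% and 4.51% of all probe sets were. Egr2 read 1413, 929.6 and 308 in CA1, above CA3 by -3.45 as a CA3 minus CA1 log2 difference (adjusted p = 0.000299). Fos read 1942, 2149 and 785 in CA1 (CA3 minus CA1 -2.11, adjusted p = 0.00297). Klf2 and Klf4 did not follow this pattern, with CA3 minus CA1 differences of 0.062 and 0.049 (adjusted p = 0.928 and 0.921). Jun was the 1 member higher than in CA1. The comparisons with CTX and CA1 share the CA3 arrays. The summed interneuron signal also lay lower in CA3 (7259 to 8110.2) than in CA1 (16144 to 18468), whereas the oligodendrocyte sum of CA1 was 4809 to 7332 and thus below that of CA3, and the part of these levels in the immediate early genes was not tested.

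**Figure D3:**
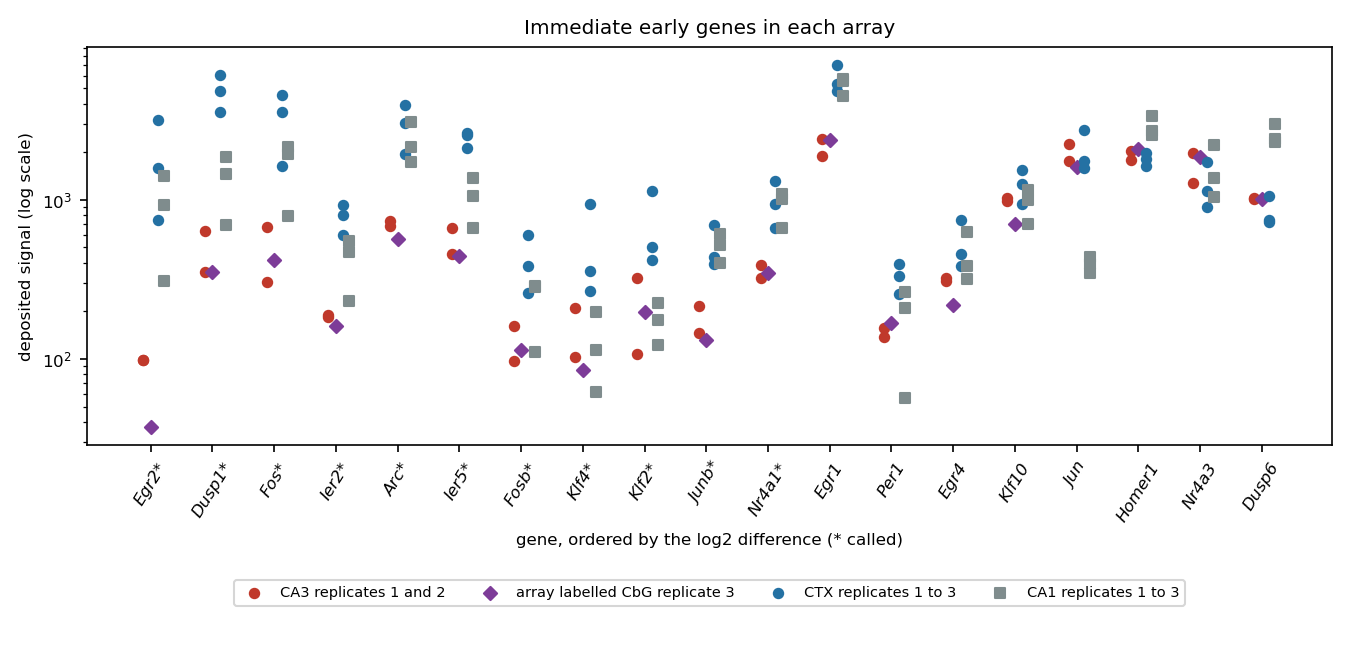
Deposited signal (log y axis) of the 19 tested immediate early genes, ordered from the most lowered to the most raised in CA3, with 1 point per array and an asterisk for genes called. The CA3 points (red) and the array labelled CbG replicate 3 (purple) lie below the CTX points (blue) for the 11 called genes, as for Egr2 at 97.5 and 98.4 against 743 to 3152, while the CA3 and CTX points mix at the right end.

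Calcium channels, pumps and exchangers set the flow of calcium into and out of the neuron. Of 16 tested, 11 were higher and 0 lower (23.0% higher over all probe sets), 6 and 0 without centring (8.04% over all), 7 and 0 with quantile normalization, and 10 and 0 with the labels exchanged. As labelled 1 was higher, the plasma membrane pump Atp2b3. At an unadjusted p of 0.05 the counts of limma stayed at 11 and 0. Leaving out 1 array at a time left 4 to 11 higher, the lowest without CA3 replicate 2. The median log2 difference of the 16 was 0.97 and that without centring 0.60. Cacna2d3, an auxiliary subunit that carries calcium channels to the membrane, read 6339 and 8359 in CA3 replicates 1 and 2 and 1745, 2122 and 1507 in CTX (log2 difference 2.38 ± 0.29, adjusted p = 0.000822). The array labelled CbG replicate 3 read 7307 and the array labelled CA3 replicate 3 read 627. Cacnb2, a second auxiliary subunit, read 2534 and 2324 in CA3 and 739, 759 and 674 in CTX (log2 difference 2.08 ± 0.24, adjusted p = 0.000749), and CA1 read 2371, 2210.1 and 2178. The exchangers that remove calcium with sodium were among the risers. Slc8a1 read 1631 and 1832 in CA3 and 640.2, 798 and 554 in CTX (log2 difference 1.65 ± 0.32, adjusted p = 0.00626), and Slc24a2, which also moves potassium, read 1609.8 and 1289.7 and 473, 693 and 507. As labelled the difference of Slc24a2 turned to -0.19, with a signal of 27.1 in the array labelled CA3 replicate 3. The members that were not called had log2 differences from -0.22 (the L-type channel Cacna1d) to 0.50 (the pump Atp2b1). Another 11 members on the array, among them Cacna1a and Cacna1e, did not reach the array median often enough to be tested.

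Components of vesicle release were called in part. Of 24 tested, 10 were higher and 2 lower (23.0% and 8.33% over all probe sets), and 5 and 3 without centring (8.04% and 13.9% over all). Leaving out 1 array at a time gave 1 to 12 higher, the lowest without CA3 replicate 2. Napa (alpha-SNAP), which disassembles SNARE complexes with NSF, read 5879.9 and 7703 in CA3 and 2205, 3018 and 2494 in CTX (log2 difference 1.81 ± 0.31, adjusted p = 0.00406). Syn2, a synapsin that tethers vesicles, read 4136 and 4055 and 2072, 1557 and 2137, and Slc17a7, the vesicular glutamate transporter VGLUT1, read 3329.7 and 3809 and 1813, 1776 and 1635 (log2 differences 1.59 and 1.40, adjusted p = 0.00141 and 0.00301). For each of these 3 genes both CA3 signals lay above all 3 CTX signals as deposited, and without centring the log2 differences were 1.44, 1.22 and 1.04. The strongest change in the list was the fall of Cadps2 described above.

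**Figure D4:**
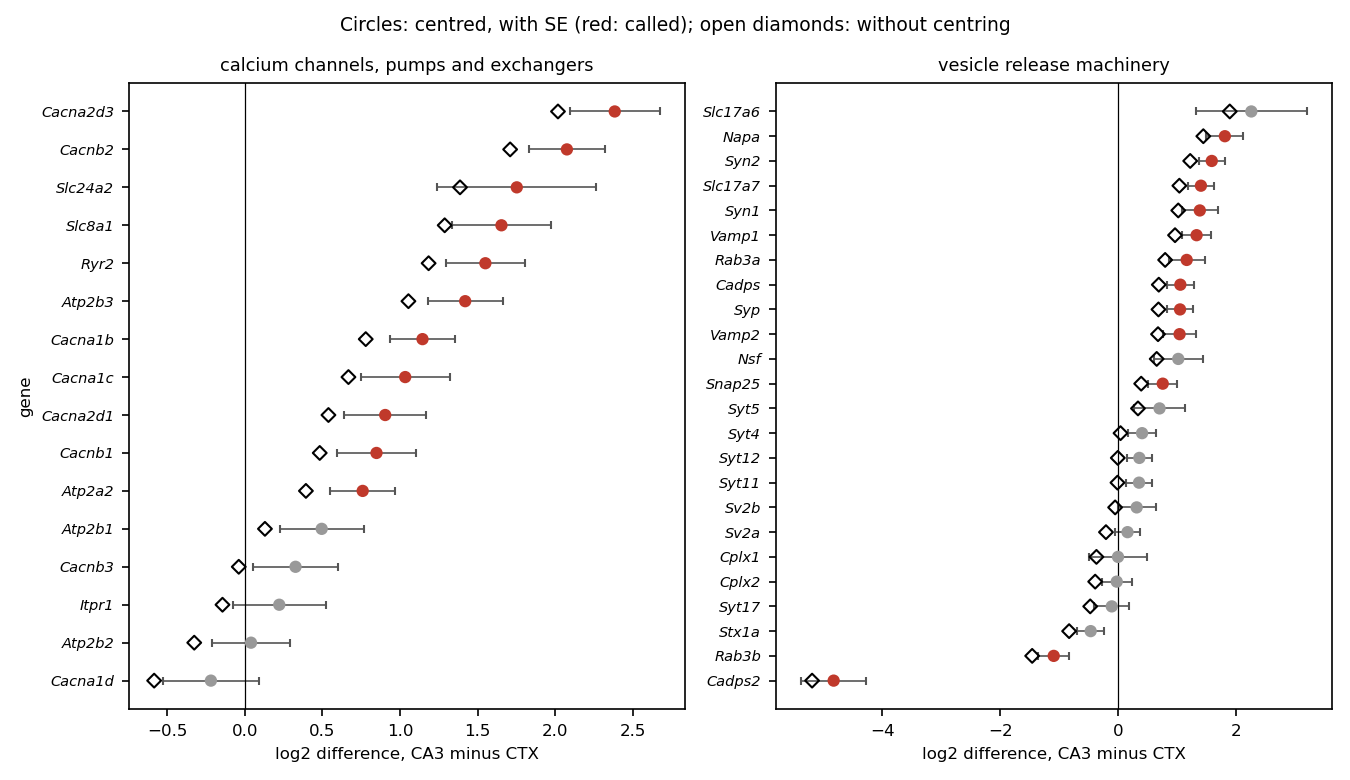
Log2 difference (x axis, CA3 replicates 1 and 2 minus CTX) of each tested member of 2 gene lists, with circles and SE bars for centred values (red where called) and open diamonds for values without centring. In the calcium list 15 of 16 circles lie above 0 (12 of 16 diamonds), from -0.22 to 2.38, and in the vesicle list Cadps2 stands apart at -4.83.

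Transmitter receptors were split. Over all probe sets 23.0% were higher and 8.33% lower (8.04% and 13.9% without centring). Of 10 tested ionotropic glutamate receptor subunits 4 were higher and 2 lower (2 and 2 without centring), and without CA3 replicate 2 the counts were 1 and 0. Beside Grik4, the AMPA receptor subunit Gria1 read 1406 and 1331 in CA3 and 663, 795 and 445 in CTX (log2 difference 1.43 ± 0.31, adjusted p = 0.00998). Another kainate subunit, Grik1, was lower, with 43.3 and 14.4 in CA3 and 245, 154 and 215 in CTX. The NMDA receptor subunit Grin1 had a log2 difference of 1.34 ± 0.29 (adjusted p = 0.0107), but another of its probe sets gave -0.75 (adjusted p = 0.0514), so its direction depended on the probe set. Of the metabotropic glutamate receptors, Grm3 fell, with 192 and 48.0 in CA3 and 1437, 1221 and 1319.5 in CTX (log2 difference -3.55 ± 0.40, adjusted p = 0.000604), and it was the 1 called of 3 tested. Grm3 is also expressed by glia. Of 7 GABA receptor subunits 4 were higher and 1 lower (2 and 2 without centring, and 1 and 0 without CA3 replicate 2). Gabra5, a subunit of extrasynaptic receptors abundant in the hippocampus, read 4239.5 and 3905 in CA3 replicates 1 and 2, 1361, 1116 and 1882 in CTX and 3479, 3228 and 3582 in CA1 (log2 difference from CTX 2.00 ± 0.36, adjusted p = 0.00466). Gabrd, another extrasynaptic subunit, was the lower one, with 175 and 193 in CA3 and 419.5, 816 and 442 in CTX. Gabra5 read 9.8 in the array labelled CA3 replicate 3 and Gabrd read 4545, and as labelled the signs of both turned (-1.05 and 0.34).

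Receptors for monoamines, acetylcholine and cannabinoids gave 3 higher and 3 lower of 10 tested (1 and 3 without centring). Over all probe sets 23.0% were higher and 8.33% lower, beside 22.7% and 31.8% of the neuropeptide list below. Among members above the array median in at least 1 array of each group, 2 of 7 of these receptors were higher and 1 lower. In the neuropeptide list 3 of 18 such members were higher and 5 lower. The alpha-1 adrenergic receptors went in opposite directions. Adra1d read 707 and 619.8 in CA3 replicates 1 and 2, 215, 139.7 and 132 in CTX and 714, 574 and 711 in CA1 (log2 difference from CTX 2.39 ± 0.27, adjusted p = 0.0006). Adra1b read 50.5 and 58.1 in CA3, 398, 435 and 466 in CTX and 102, 84.3 and 60.0 in CA1 (-2.71 ± 0.28, adjusted p = 0.000395). For each gene CTX lay on one side of all CA3 and CA1 signals. Of the neuropeptides and their receptors, 5 were higher and 7 lower of 22 (3 and 11 without centring), with 2 lower without CTX replicate 1 and 2 higher without CA3 replicate 2, and the lower ones included the interneuron peptides Vip, Sst and Penk. Adcyap1, the gene of the peptide PACAP, read 74.4 and 108 in CA3, 638, 543 and 442 in CTX and 615, 782 and 555 in CA1. Chgb (chromogranin B), a protein of dense-core vesicles, rose, with 9544 and 14307 in CA3 and 4111, 3556 and 2936 in CTX (log2 difference 2.08 ± 0.28, adjusted p = 0.00131), and was also called as labelled.

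Potassium channels and their partners gave 5 higher and 2 lower of 19 with centring but 3 and 7 without it, so the list had no direction that held. With centring these shares of 26.3% and 10.5% lay near the 23.0% and 8.33% of all probe sets. Kcnip2, a calcium-binding partner of the A-type channels, read 3319.7 and 4049.5 in CA3 and 515, 1119.8 and 787 in CTX (log2 difference 2.62 ± 0.25, adjusted p = 0.000246). Kcnj6, the inward rectifier GIRK2, read 1906 and 2321 and 668, 735 and 592. Kcnc2, a channel of the Kv3 family known from fast-spiking interneurons, fell, with 1221 and 1251 in CA3 and 3785, 5605 and 3377 in CTX (log2 difference -1.55 ± 0.23, adjusted p = 0.00212). Among 6 tested sodium and HCN channel genes, Scn3b, an auxiliary sodium channel subunit, was the 1 called with centring. It read 4165 and 6874 in CA3 replicates 1 and 2, 945, 916 and 955 in CTX, 8587, 8080.0 and 7006 in CA1 and 36.5 in the array labelled CA3 replicate 3.

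Calcium buffers and sensors gave 3 higher and 1 lower of 16 (2 and 3 without centring). With centring these shares of 18.8% and 6.25% lay near the 23.0% and 8.33% of all probe sets (8.04% and 13.9% without it). Hippocalcin (Hpca), a calcium sensor named for the hippocampus, read 9452 and 11368 in CA3 replicates 1 and 2, 8365, 9618 and 10195 in CA1 and 1173, 1613 and 1217 in CTX (log2 difference from CTX 3.34 ± 0.22, adjusted p = 9.49e-05). Necab2, another calcium-binding protein, read 1626 and 1589, 1654, 1227 and 1908 and 295, 211 and 279 in the same order. The calmodulin kinases and calcineurin subunits gave 7 higher and 1 lower of 16, but 0 and 2 without centring, so the rises depended on the scaling, and 0 were higher without CA3 replicate 2. Ppp1r1b (DARPP-32), the phosphatase inhibitor of neurons that receive dopamine, was the lower one, with 209.9 and 346 in CA3 and 1219, 1136 and 996 in CTX (log2 difference -1.73 ± 0.31, adjusted p = 0.00442). It thus went the way of Drd1. Protein kinase C and cyclic AMP enzymes gave 6 higher and 5 lower of 21 (4 and 7 without centring, and 2 higher without CA3 replicate 2). Prkar2b, a regulatory subunit of protein kinase A, read 265 and 149 in CA3, 2597, 2839 and 2835 in CTX and 708, 506 and 543 in CA1. The adenylyl cyclases Adcy2 and Adcy8 were lower than in CTX (log2 differences -2.23 and -2.04) and lower than in CA1 (-3.17 and -2.60, adjusted p = 0.000758 and 0.000527). Rgs4, which curbs signaling through Gq and Gi proteins, read 552 and 507 in CA3, 672, 674 and 726 in CA1 and 6161, 6492 and 4458 in CTX (log2 difference from CTX -3.11 ± 0.28, adjusted p = 0.000201), in a list of 9 regulators with 1 higher and 2 lower (1 and 4 without centring).

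Transcription factors of forebrain neurons were called higher in 4 and lower in 3 of 18 cases, and 4 and 4 without centring. With centring the shares were 22.2% and 16.7%, beside 23.0% and 8.33% of all probe sets (8.04% and 13.9% without it). The lower count was 1 without any one of the arrays CA3 replicates 1 and 2 and CTX replicates 1 and 2. Nr3c2, the mineralocorticoid receptor, read 2411 and 2663 in CA3 replicates 1 and 2, 3075, 2591 and 2730.0 in CA1 and 405, 331 and 424 in CTX (log2 difference from CTX 3.11 ± 0.21, adjusted p = 9.53e-05). Both hippocampal layers were therefore far above the cortex for this steroid receptor. Mef2c, a transcription factor of activity-dependent programs, went the other way, with 1123 and 859 in CA3, 2793, 2887 and 2811 in CA1 and 10869, 12942 and 9992 in CTX (-3.19 ± 0.28, adjusted p = 0.000201). It was lower in CA3 than in CA1 as well (log2 difference -1.52, adjusted p = 0.0113). Lhx2, a homeobox factor, read 2035 and 1879 in CA3 and 901, 491 and 1037 in CTX, but its difference turned to -0.67 as labelled, with a signal of 15.0 in the array labelled CA3 replicate 3.

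Growth factors and their receptors gave 10 higher and 3 lower of 22 (23.0% and 8.33% over all probe sets), and 6 and 5 without centring (8.04% and 13.9% over all). A member can enter the test through 1 group alone, as Ntf3 did through CA3 and Igfbp6 through CTX. Of the 14 above the array median in at least 1 array of each group, 6 were higher and 1 lower. Of the 7802 probe sets of that kind, 23.1% were higher and 5.6% lower. Against CA1, 9 were higher and 0 lower by limma (4.51% and 4.05% over all). Leaving out 1 array at a time gave 3 to 10 higher, the lowest without CA3 replicate 2. The neurotrophin Ntf3 read 382 and 786 in CA3, 73.7, 114 and 63.3 in CTX and 104, 118 and 101 in CA1 (log2 difference from CTX 3.01 ± 0.30, adjusted p = 0.000289). Bdnf read 512 and 564 in CA3, 282, 98.6 and 114 in CTX and 42.8, 73.0 and 72.1 in CA1 (2.21 ± 0.45, adjusted p = 0.00816). CA3 held the highest signals of the forebrain arrays for each of these ligands. The receptor Fgfr1 read 1589 and 1983 in CA3 and 402, 363 and 381 in CTX (log2 difference 2.56 ± 0.25, adjusted p = 0.000269), and it was the 1 higher member called as labelled. Igfbp6, a secreted binding protein of insulin-like growth factors, was lower, with 72.1 and 125 in CA3 and 502, 474 and 548 in CTX.

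Adhesion and axon guidance genes gave 15 higher and 7 lower of 30 (23.0% and 8.33% over all probe sets), but 6 and 9 without centring (8.04% and 13.9% over all), and 6 and 3 without CA3 replicate 2. The semaphorin coreceptor Nrp1 read 1386 and 1610.0 in CA3 and 442, 516 and 545 in CTX (log2 difference 1.99 ± 0.25, adjusted p = 0.000897). Epha5 and Epha4, receptors for ephrins, were higher by 1.87 and 1.77 on the log2 scale (1.51 and 1.40 without centring), while their ligand Efna5 was lower, and they were named after their values were seen for that reason. Cntn6, a contactin, was lower, with 50.7 and 6.7 in CA3 and 185, 245 and 214 in CTX. Among members above the array median in at least 1 array of each group, 15 of 26 adhesion genes were higher and 4 lower. For the matrix genes that follow, 2 of 10 such members were higher and 2 lower. Extracellular matrix genes gave 3 higher and 4 lower of 16 (2 and 5 without centring, and 1 lower without CA3 replicate 2), among them Lum (lumican), which read 949 and 239.8 in CA3 and 81.5, 47.7 and 121 in CTX, and Col6a1, a collagen VI chain, with 60.5 and 81.7 and 567, 675 and 650.2. Neurofilament and axonal cytoskeleton genes gave 7 higher and 3 lower of 29 (2 and 4 without centring, and 1 higher without CA3 replicate 2). Nefl, the light neurofilament chain, read 4661 and 5176 in CA3 and 2227, 2759 and 1363 in CTX (log2 difference 1.53 ± 0.31, adjusted p = 0.00812), and Stmn1 (stathmin), which destabilizes microtubules, read 1964 and 1978 and 8083, 9327 and 7229.9 (-1.73 ± 0.29, adjusted p = 0.00348). The cytoskeleton shares of 24.1% higher and 10.3% lower lay near the 23.0% and 8.33% of all probe sets. So did the 23.1% and 7.69% of the postsynaptic scaffold genes that follow. Of 13 postsynaptic scaffold genes 3 were higher and 1 lower (2 and 1 without centring, and 0 of either without CA3 replicate 2 by limma), led by the neuronal pentraxin receptor Nptxr with 4967 and 6266 in CA3 and 1964, 2109 and 2439 in CTX.

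Counts for genes of energy metabolism and of defense against oxidative stress, the subject of the study, depended on the scaling. Glycolysis gave 8 higher and 1 lower of 20 with centring, 3 and 1 without it and 2 and 3 with quantile normalization. Eno1 (enolase) read 6295 and 6357 in CA3 and 2988, 3089 and 2703 in CTX (log2 difference 1.44 ± 0.21, adjusted p = 0.00179), and the lower member was the glucose transporter Slc2a1, which is also an endothelial marker. The citrate cycle gave 10 higher and 0 lower of 22 (23.0% and 8.33% over all probe sets), and 3 and 1 without centring (8.04% and 13.9% over all). Suclg1, a succinyl-CoA ligase subunit, read 2646 and 3521 in CA3 and 1368, 1098 and 1012 in CTX (1.76 ± 0.30, adjusted p = 0.00363), and the cytosolic malic enzyme Me1, which makes NADPH, read 1638 and 1779.5 and 673, 691 and 573 (1.77 ± 0.23, adjusted p = 0.00111). Of 45 oxidative phosphorylation subunits 8 were higher and 0 lower, a share below the 23.0% of all probe sets, and 2 and 0 without centring. All 45 had positive differences with centring and 32 had without it, with medians of 0.53 and 0.16. Without CA3 replicate 2 the higher counts were 1 in glycolysis, 1 in the citrate cycle and 0 in oxidative phosphorylation by limma.

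Antioxidant defense gave 10 higher and 2 lower of 32, shares of 31.2% and 6.25% that lay near the 23.0% and 8.33% of all probe sets, and 2 and 2 both without centring and with quantile normalization. Without CA3 replicate 2 limma called 0 higher and 1 lower, at the bottom of a range of 0 to 13 higher over the omissions of 1 array. The glutathione transferase Gsta4 read 1319.8 and 1052 in CA3, 789.8, 447 and 634 in CTX and 367, 352 and 345 in CA1 (log2 difference from CTX 1.33 ± 0.26, adjusted p = 0.00711). Gstp1, another transferase, was lower, with 264 and 219 in CA3 and 849, 619.7 and 725 in CTX (-1.29 ± 0.22, adjusted p = 0.00385), and was the 1 member called as labelled. Nfe2l2 (NRF2), the transcription factor that induces such enzymes, read 126 and 19.4 in CA3 replicates 1 and 2 and 377, 229 and 294 in CTX, a log2 difference of -2.32 ± 0.57 (adjusted p = 0.0159) that was -1.64 with signals under 50 set to 50. The superoxide dismutases Sod1 and Sod2 and the peroxidase Gpx1, named here because they are the best-known members, had log2 differences of 0.34, 0.43 and 0.071 that did not pass the test (adjusted p = 0.27, 0.313 and 0.856). Heat shock proteins and chaperones gave 8 higher and 2 lower of 21 (2 and 2 without centring, and 0 higher without CA3 replicate 2 by limma). The 2 lower ones were the small heat shock proteins Hspb1 and Cryab, and Cryab, which oligodendrocytes and astrocytes also express, read 281 and 199 in CA3 and 1073, 1086 and 1054 in CTX (log2 difference -1.77 ± 0.24, adjusted p = 0.00138). As labelled, 0 members of glycolysis, the citrate cycle, oxidative phosphorylation or the chaperones were called by limma, against 4, 8, 13 and 1 higher and, for the chaperones, 2 lower at an unadjusted p of 0.05.

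Counts as labelled were low in the other lists too, and 1.21% of all probe sets were higher and 1.24% lower. Transcription factors gave 2 higher, neuropeptides 2 higher, and vesicle release and the cytoskeleton 1 higher each. Protein kinase C and cyclic AMP enzymes gave 2 lower, the extracellular matrix 2 lower, and adhesion, the monoamine receptors, the metabotropic receptors and the regulators of G protein signaling 1 lower each. Growth factors gave 1 in each direction. Of the marker lists, Neurod1 was called higher, and 2 markers of cortical layers and 1 of microglia lower. With limma 0 members of the ionotropic glutamate receptors, GABA receptors, ion channels other than those for calcium, calcium buffers, calmodulin kinases or scaffold proteins were called as labelled. The markers of CA3, CA2, CA1 and the dentate gyrus had 0 called by limma as labelled as well.

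With the labels exchanged, most counts lay close to those from CA3 replicates 1 and 2. In that fit 25.3% of all probe sets were higher and 10.3% lower, and counts near these shares do not set a list apart. Markers gave 4 higher and 2 lower for CA3, 4 and 0 for CA2, 1 and 1 for CA1, 0 and 2 for the dentate gyrus, 2 and 3 for the cortical layers and 1 and 3 for cerebellar granule cells, and 9 oligodendrocyte, 5 astrocyte, 3 microglia and 3 endothelial markers were lower. Among channels and receptors, potassium channels gave 4 and 4, sodium and HCN channels 1 and 1, ionotropic glutamate receptors 3 and 2, GABA receptors 4 and 1, and monoamine receptors 3 and 2. Calcium buffers gave 3 and 1, calmodulin kinases 7 and 2, protein kinase C and cyclic AMP enzymes 6 and 5, regulators of G protein signaling 1 and 3, and transcription factors 4 and 3. Vesicle release gave 11 and 2, scaffold proteins 5 and 1, neuropeptides 5 and 10, growth factors 9 and 5, adhesion and guidance 13 and 9, the extracellular matrix 3 and 5, and the cytoskeleton 9 and 3. In metabolism the counts were 9 and 1 for glycolysis, 11 and 0 for the citrate cycle, 14 and 0 for oxidative phosphorylation, 12 and 2 for antioxidant defense and 10 and 2 for chaperones.

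**Figure D5:**
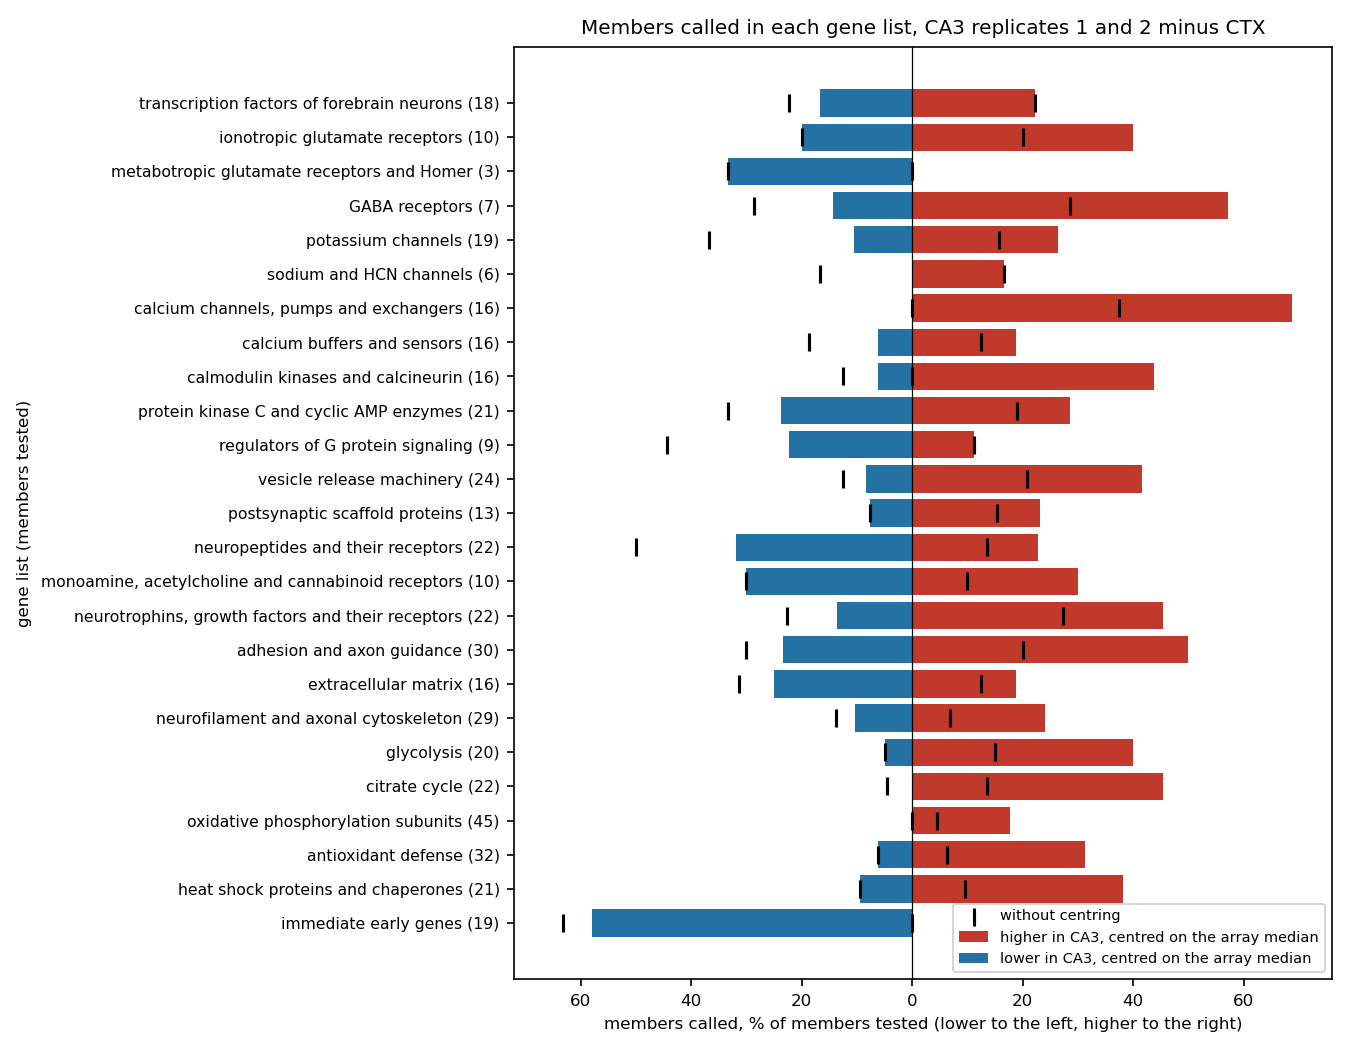
Share of tested members (x axis, %) called higher (red, to the right) or lower (blue, to the left) in CA3 replicates 1 and 2 than in CTX, for the 25 function lists with the number tested in parentheses, and black ticks for the same shares without centring. The immediate early genes reach 57.9% lower with no red bar, the calcium list 68.8% higher with no blue bar, and many other red bars shrink to their ticks without centring.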

How the data were processed

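The submitters' processing notes name MAS5, without a version. The authors deposited 1 signal intensity per probe set and array, linear and computed with MAS5, and scaled to a common target intensity per array, so the depth of a sample has no counterpart here and the number of arrays limits the precision. The table held 15923 probe sets, of which 57 were controls, and 0 of its columns were without a sample. Gene names came from the platform annotation: 12783 probe sets had 1 symbol, 312 several and 2771 none listed.

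The members and gene lists were chosen with earlier results of these data known, including the doubt about 2 arrays. Samples were grouped by their titles, and the biological replicate number was used as a block. The study's methods describe samples of each population from each animal, but not how many animals there were or which number belongs to which, so p-values measure the spread between the samples of all regions in the fit. Same-numbered CA3 and CTX arrays deviated together with correlations of 0.142, 0.114 and 0.113 as labelled and 0.144, 0.158 and 0.0447 with the labels exchanged. Probe sets were tested when above the array median in at least 2 of 5 arrays (CA3 replicates 1 and 2 and the 3 CTX arrays), which left 8486. Limma 3.58.1 in R 4.3.3 fitted region means with the replicate number as a block on log2 signals minus the array median, on the 12 arrays or on the 10 without the doubted ones. Calls needed a Benjamini-Hochberg adjusted p of 0.05 and 1.5-fold. Lists used the brightest probe set of each gene. Named genes were the 12 largest differences in each direction whose groups did not overlap, up to 4 called members of each list (those of largest difference), and markers for the labels. Tables and plots were made with pandas 2.3.3 and matplotlib 3.10.9.

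The fit was tested on simulated data with 8486 probe sets. Noise was independent and normal around a mean shared by the regions, with no array, animal or floor effects. Changes were put into CA3 only, in a far smaller share of probe sets than the 31.4% called in the data. The counts thus describe that setting and not the real comparison. On 10 arrays it recovered 0 of 50 changes of 1.5-fold, 21 of 50 of 2-fold, 50 of 50 of 4-fold and 49 of 50 of 8-fold, with 8 false calls among 8286 unchanged. The authors' detection calls were not used here. Alternatives were no block, only the CA3 and CTX arrays, other scalings, filters and floors, a trend in the prior variance, the methods' paired test, omitted arrays and exchanged labels. The omission of all arrays numbered 3, the floor of 50 against CA1 and the counts of probe sets above the median in both groups were chosen after seeing the data.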

Additional observations from a re-analysis of the deposited data

Results flagged for a closer look

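Both arrays set aside from the gene values held marker signals several times those of the other arrays of their label. In the array labelled CbG replicate 3, Grik4 read 621 against 70.0 and 135.6 in the other CbG arrays, and Nrgn read 6451 against 21.8 and 24.5. In the array labelled CA3 replicate 3, Gabra6 read 2568 against 5.6 and 38.6 in the other CA3 arrays, and Neurod1 read 8829 against 1510.2 and 1540.4. These are single arrays, and the difference between each and its label was not tested.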

How the results depend on the processing

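As labelled, the counts of 103 probe sets higher and 105 lower became 342 and 169 with no replicate block, 0 and 0 by limma on the CA3 and CTX arrays alone (1397 and 513 at an unadjusted p under 0.05 and 1.5-fold), 57 and 165 with quantile normalization, 42 and 192 without centring, 12 and 27 without the filter, 54 lower with the filter of 8 of 12 arrays, 1301 and 553 without the arrays numbered 3, 2148 and 878 with the labels exchanged, and 2154 and 820 with the labels exchanged and no replicate block. The methods' paired test gave 815 and 224 at an unadjusted p of 0.05 and 0 and 0 after Benjamini-Hochberg as labelled, and 1767 and 557, then 0 and 1, with the labels exchanged. Leaving out 1 array at a time gave 3 to 848 higher and 9 to 355 lower, the highest without CA3 replicate 3 (848 and 355) and the lowest without a CTX array (3 to 4 higher and 9 to 11 lower), with 408 and 223 without CbG replicate 3, 13 and 23 without CA3 replicate 1, 18 and 34 without CA3 replicate 2, and 25 to 35 and 39 to 51 without a CA1 array. With CA3 replicates 1 and 2, the counts of 1955 and 707 became 816 higher with quantile normalization, 682 and 1181 without centring, and 270 and 197 without the filter, when 15866 probe sets were tested. They became 318 and 229 without CA3 replicate 2, 853 and 467 without CA3 replicate 1, 1048 and 411 without CTX replicate 2 and 1100 and 482 without CTX replicate 1, and 1301 and 553 without CTX replicate 3 or CA1 replicate 3, within ranges of 318 to 2361 higher and 229 to 845 lower over all single arrays, and a group left with 1 array was taken to vary like the others. The block moved these counts to 2146 and 730 when it was dropped, which is within 1.5 times. In the fit with CA3 replicates 1 and 2, the block of replicate 3 holds only a CA1 and a CTX array. Omitting either of these arrays is therefore the same fit as omitting all arrays numbered 3. Against those of the 10-array fit, 9 of 135 called genes turned sign as labelled (Reln 0.30, Gabrd 0.34, Grin2c 0.21, Lhx2 -0.67, Gria1 -0.17, Gabra5 -1.05, Gabrb1 -0.077, Slc24a2 -0.19 and Nrgn -1.45) and 109 no longer passed, 134 were called alike with the labels exchanged, 122 without centring and 116 with quantile normalization, but 59 with no filter, 74 without CA3 replicate 2, 106 without CA3 replicate 1, 108 without CTX replicate 2 and 112 without CTX replicate 1, and the other probe set of Grin1 gave -0.75. The cause of these changes was not tested.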
